A study of Mus musculus with 6 samples.

Results

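The genes described here encode the catalytic subunits of the 20S proteasome and its PA28 activator, and their RNA was measured in CD8 T cells of WT and BIT mice. They are 10 of the 78275 genes in the count table, taken by symbol: the standard catalytic genes Psmb6 (β1), Psmb7 (β2) and Psmb5 (β5), the immunoproteasome genes Psmb9 (β1i), Psmb10 (β2i) and Psmb8 (β5i), the thymoproteasome gene Psmb11 (β5t), and the PA28 genes Psme1 (PA28α), Psme2 (PA28β) and Psme3 (PA28γ). BIT mice are C57BL/6 mice whose Psmb8 gene was edited with Cas9 so that Psmb11 cDNA lies at the translation start of Psmb8, and they carry this allele on both chromosomes. WT mice have the unedited gene. Each group held 3 mice, 9 to 10 weeks old and labelled male, with 1 library per mouse from CD4-CD8+ TCRβhigh T cells sorted from lymph nodes (a protocol note also names spleens), and no treatment is named. The study made several BIT lines and used line BIT #1-2 unless it says otherwise. The labels do not name the line, and with a single line its effects and those of the allele cannot be told apart.

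The proteasome core is a barrel of stacked rings in which 3 of the β subunits, β1, β2 and β5, cut proteins through an N-terminal threonine that is exposed when a propeptide is removed. Hematopoietic cells and cells exposed to interferon use β1i, β2i and β5i in their place, and cortical thymic epithelial cells use β5t with β1i and β2i, which changes the peptides offered on MHC class I and is needed for the positive selection of most CD8 T cells. PA28α and PA28β form a cap on the barrel that eases the entry and exit of peptides, while PA28γ forms a separate cap in the nucleus.

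The RNA of both ends of the exchange can be told apart because the 3 β5 genes differ in sequence, also around the catalytic threonine. The stretches below are shown so that the genes at one position can be compared. Each holds 39 coding bases of the GRCm39 genome, 5′ to 3′, and the capitals mark the codon of the threonine that becomes the N terminus of the mature subunit.
Psmb6 (β1): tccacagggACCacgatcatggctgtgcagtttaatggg
Psmb9 (β1i): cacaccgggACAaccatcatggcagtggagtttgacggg
Psmb7 (β2): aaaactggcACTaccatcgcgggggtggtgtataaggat
Psmb10 (β2i): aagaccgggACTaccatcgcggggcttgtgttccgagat
Psmb5 (β5): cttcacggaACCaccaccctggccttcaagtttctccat
Psmb8 (β5i): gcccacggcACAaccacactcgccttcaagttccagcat
Psmb11 (β5t): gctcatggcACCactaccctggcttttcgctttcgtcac

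Within these 39 bases Psmb8 differed from Psmb5 at 10 positions and from Psmb11 at 15. Psmb5 and Psmb11 differed at 13, Psmb6 and Psmb9 at 9, and Psmb7 and Psmb10 at 10. Over the whole aligned coding sequences, Psmb5 and Psmb8 were identical at 68.6% of 780 bases, Psmb8 and Psmb11 at 65.9% of 727 and Psmb5 and Psmb11 at 65.2% of 741. The longest run of bases shared by Psmb8 and Psmb11 was 24, well under the read length of 100, and neither gene shared a run of 100 bases with any other annotated gene. Reads that lie wholly within the inserted β5t sequence therefore need not be divided with Psmb8 or Psmb5. How reads across the border of the insert and Psmb8 were counted was not examined.

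The threonine codon of Psmb8 is codon 73 and lies in exon 2 of 6 (chr17:34418276-34418278, plus strand). That of Psmb11 is codon 50 and lies in the only exon of its canonical transcript (chr14:54862931-54862933, plus strand), so that the cDNA inserted in BIT mice carries its own copy. Psmb8 (chr17:34416690-34420428) sits in the MHC region with Psmb9 (chr17:34400960-34406738, minus strand) 9951 bases away, and between the peptide transporter genes Tap1 and Tap2, which lie 490 and 2072 bases from it. Psmb5 (chr14:54850776-54855481, minus strand) and Psmb11 (chr14:54858890-54867013) are also neighbours, 3408 bases apart, and Psme1 (chr14:55815190-55822034) and Psme2 (chr14:55824895-55829173, minus strand) are 2860 bases apart. The remaining members have no other member beside them: Psmb6 at chr11:70416183-70418684, Psmb7 at chr2:38478044-38534099 on the minus strand, Psmb10 at chr8:106662362-106665077 on the minus strand, and Psme3 at chr11:101206777-101215813. On the opposite strand, Psmb7 overlaps Nek6 over 7422 bases and Psmb10 overlaps Gm16156 over 2716. Nek6 had 6 to 24 counts per library and Gm16156 at most 1.

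The libraries held between 37467678 and 52922675 estimated counts, which are counts that RSEM divides between genes where a read matches several. Levels of a gene are given as CPM, a gene's count relative to the total of its library, scaled between libraries with TMM factors. A count of 0 allows up to 3 counts, which is 0.0583 to 0.0741 CPM on this scale, for counting error only. The markers of cell types are given as plain CPM, without TMM factors. Those of CD8 T cells summed to between 3747 and 4145 CPM, of CD4 T cells to at most 5.68, of B cells to at most 39.1 and of myeloid and dendritic cells to at most 20.2. WT replicate 3 stood apart from its label: it had 66626 counts of Xist and 0 counts over 4 Y-linked genes, while the other 5 libraries had at most 125 counts of Xist and 8474 to 12329 over the Y-linked genes. Some changes and sums of the members are also given without this library, while the lists of other genes are given only with it.

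Psmb8 and Psmb11 exchanged places in BIT mice. Psmb8 had 10790, 10345 and 8024 estimated counts in the 3 WT mice and 73, 59 and 60 in the BIT mice, or 203 ± 16.5 CPM (SD, n = 3) against 1.55 ± 0.166. BIT mice thus held 0.762% of the WT level of counts assigned to Psmb8, and the remaining counts lay above the floor in all 3 of them. The study describes the insert as lying within exon 1 of Psmb8, so Psmb8 sequence kept in the edited gene may add to these counts. Their source was not tested. The fitted log2 fold change was -7.00 (SE 0.22), with a 95% interval from -7.49 to -6.51 and an adjusted p of 2.87e-06 from limma-voom with Benjamini-Hochberg adjustment over all 16105 genes tested. Psmb11 had 0 counts in each WT mouse and 1926, 1754 and 1226 in the BIT mice, or 45.8, 42.4 and 30.3 CPM. The mean of 39.5 ± 8.16 CPM (SD, n = 3) was at least 624-fold higher than the mean floor of the WT libraries, 3 counts per library on the same TMM scale. The limma-voom adjusted p of Psmb11 was 0.000226, and it was 0.0615 when WT replicate 1 was left out. Leaving out the library that stood apart from its label, WT replicate 3, gave 0.00785 for Psmb11 and 1.74e-06 for Psmb8.

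Psmb8 and Psmb11, the edited and the inserted gene, were set to differ by the design, so their calls only check the genotype labels. These 2 genes were the members called changed, 1 higher and 1 lower, at an adjusted p below 0.05. Over all genes tested 0.137% passed this rule, 0.0807% as higher in BIT and 0.0559% as lower. The 2 were also the members whose WT and BIT values did not overlap, in a table where 13.3% of the genes did not overlap, so that a single member without overlap would not stand out from the background. In the plot of CPM by mouse, the exchange is the one place where the colours separate.

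**Figure D1:**
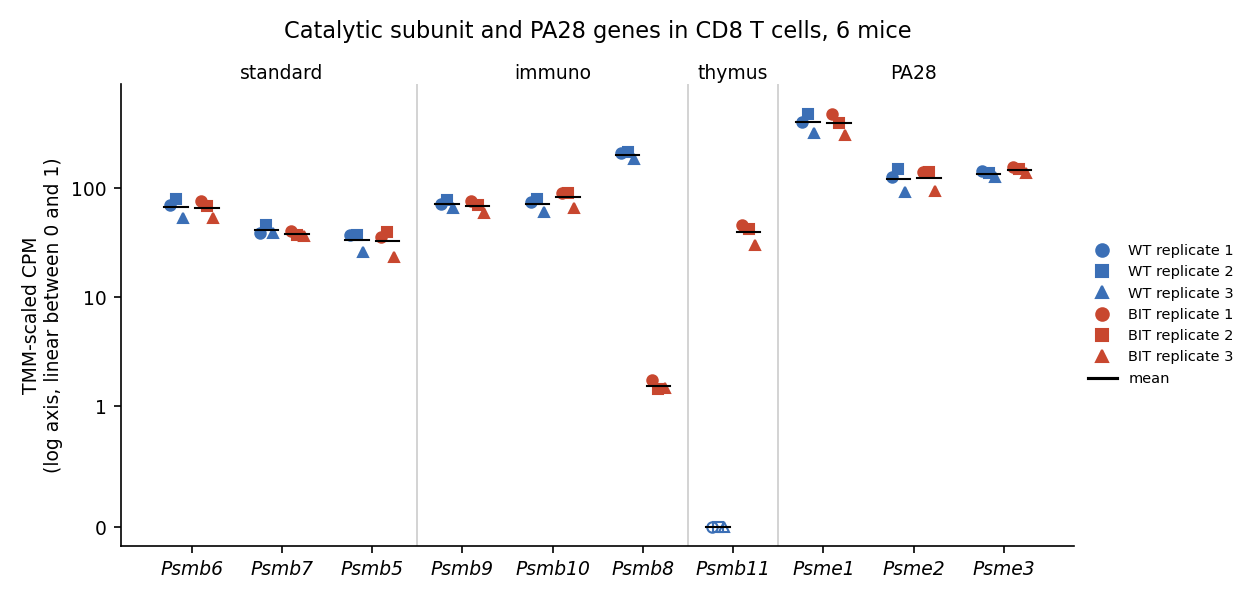
TMM-scaled CPM of each gene (log axis, linear between 0 and 1) in the 3 WT mice (blue) and 3 BIT mice (red), with the replicate shown by the symbol, the mean by a line and values of 0 by open symbols. Psmb8 falls from 203 to 1.55 CPM and Psmb11 rises from 0 to 39.5, while the points of the other 8 genes overlap.

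Thymic epithelial cells are the normal site of Psmb11. Of 9 markers of thymic epithelium, Foxn1, Krt8, Krt5 and Krt14 had 0 counts in all 6 libraries, and Krt18 and Dll4 reached at most 0.0267 and 0.0250 plain CPM, which is under the floor. The other 3 had counts in every library: Prss16 at 0.0447 to 0.302, Epcam at 1.10 to 1.81 and the chemokine gene Ccl25 at 6.30 to 18.7. Prss16 was under the plain CPM floor in BIT replicates 1 and 2 (0.0447 and 0.0475 against 0.0670 and 0.0713) and at it in BIT replicate 3 (0.0801). The list summed to 10.8 to 20.1 plain CPM in WT and 7.66 to 17.6 in BIT, so the sum was not higher in the mice that held Psmb11. Most of this sum was Ccl25.

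To compare genes with each other, CPM was divided by gene length. The canonical transcript of Psmb11 is 4247 bases long, of which 909 are coding, while that of Psmb8 is 1702 bases long with 831 coding. In BIT mice the β5t sequence comes from an inserted cDNA whose transcript length is not annotated, so levels per kilobase are given for both the canonical transcript and the coding sequence. Per kilobase of canonical transcript, Psmb11 in BIT reached 9.30 ± 1.92 CPM (SD, n = 3), which is 7.79% of the Psmb8 level of 119 ± 9.72 in WT. Per kilobase of coding sequence, Psmb11 in BIT reached 43.5 ± 8.98 CPM against 245 ± 19.9 for Psmb8 in WT, or 17.8%. Both percents give both genes the same kind of length. Psmb11 on coding length (43.5) beside Psmb8 on canonical length (119) would be a larger share than either. On either length, every BIT mouse held less Psmb11 than any WT mouse held Psmb8.

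Psmb5, the standard β5 gene, lies on another chromosome than the edit. It had 37.1, 36.99 and 26.2 CPM in WT and 35.8, 40.0 and 23.5 in BIT. Replicate 3 was the lowest mouse of each group and the groups overlapped. The log2 fold change was -0.07 (SE 0.18; 95% interval -0.47 to 0.34) with a limma-voom adjusted p of 0.935. On the linear scale this interval runs from 0.720 to 1.26 times the WT level. Without WT replicate 3 the log2 fold change was -0.20 (95% interval -0.58 to 0.18). Psmb5 also shares runs of at least 100 bases with 22 other annotated genes, some of them well expressed, and its estimated counts were not whole, so RSEM divided some of its reads.

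The transcripts for the β5 position had values in BIT that did not overlap with WT, in amount and in make-up. The edited gene Psmb8 and the inserted gene Psmb11 both belong to this position, so a change in make-up was set by the edit. The loss of Psmb8 also enters the amount. The sum of Psmb5, Psmb8 and Psmb11 per kilobase of canonical transcript was 145, 149 and 124 CPM in WT and 32.8, 34.3 and 21.8 in BIT. The BIT sum was 0.210 times the WT sum on canonical length and 0.299 times on coding length. On the union of all annotated exons it was 0.342 times, and on no length did the groups overlap. Each fold gives all genes the same kind of length. With Psmb11 on coding length and Psmb5 and Psmb8 on canonical length, the BIT sum would lie closer to the WT sum than in any of these folds. The size of the drop is thus not settled. The log2 difference on canonical length was -2.25, and -2.33 without WT replicate 3. The exact two-sided permutation test gave p = 0.1, the smallest that 3 mice against 3 allow. In WT, Psmb8 made up 86.0% ± 1.42 (SD, n = 3) of the sum and Psmb5 the other 14.0% on canonical length. On the union of exons these WT shares were 76.3% and 23.7%. In BIT, Psmb5 made up 65.3% ± 2.78, Psmb11 31.5% ± 2.13 and the counts assigned to Psmb8 3.18% ± 0.776 on canonical length. On coding length the BIT shares were 47.6% ± 2.91 for Psmb5, 50.2% ± 2.499 for Psmb11 and 2.21% ± 0.512 for Psmb8. Which of Psmb5 and Psmb11 was the larger in BIT thus depended on the lengths used. On coding length Psmb11 was above Psmb5 in 2 of 3 BIT mice, and on canonical length it was below Psmb5 in all 3. Both comparisons give both genes the same kind of length. Psmb11 on coding length (50.4, 46.6 and 33.3 CPM per kilobase in BIT) was above Psmb5 on canonical length (21.0, 23.5 and 13.8) in all 3. The length that applies to the inserted sequence is not known.

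**Figure D2:**
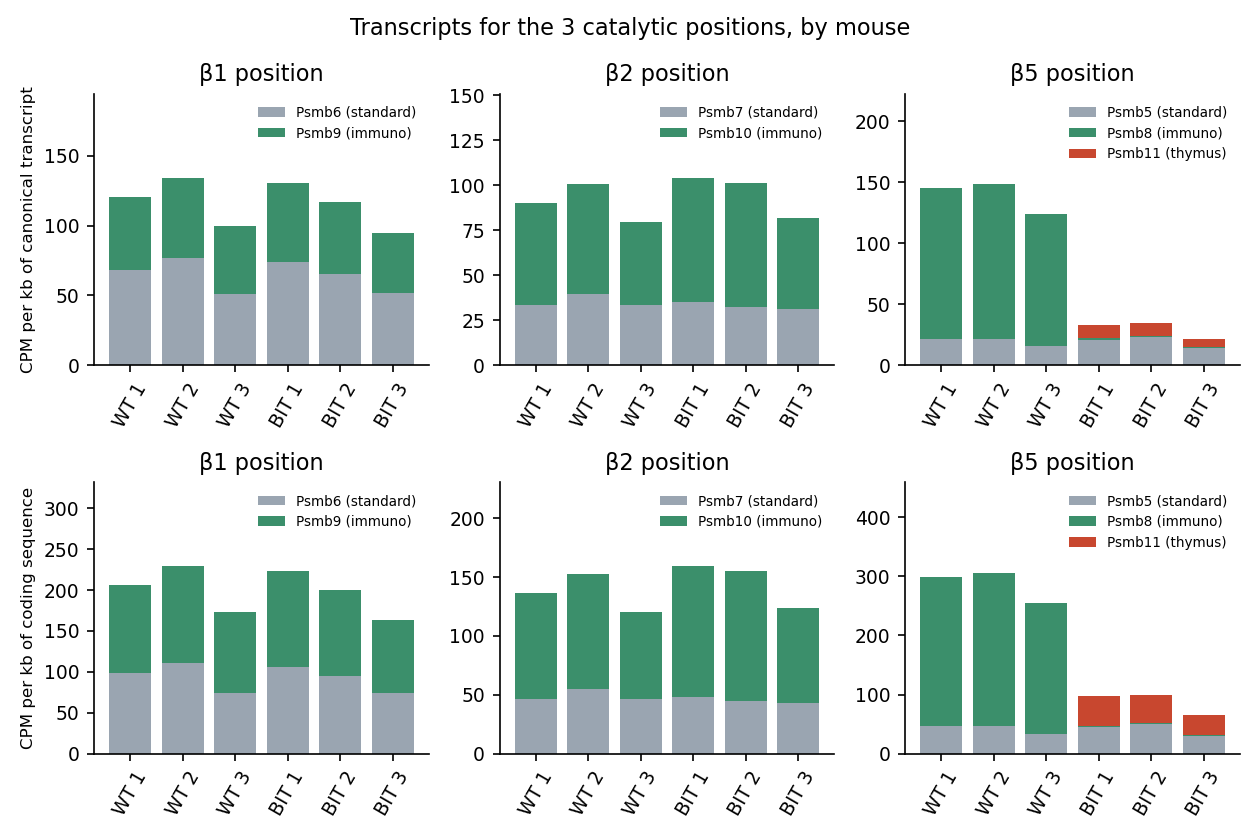
CPM per kilobase for the genes of the β1, β2 and β5 positions, stacked, in each of the 3 WT and 3 BIT mice, with canonical transcript length in the top row and coding length in the bottom row. The β5 bars of the BIT mice are lower (29.7 against 139 CPM on canonical length) and hold Psmb11 in place of Psmb8, while the β1 and β2 bars of the genotypes overlap. Each row gives all genes the same kind of length, and the size of the β5 gap depends on the length given to Psmb11.

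The β1 position, which cuts after acidic residues in its standard form, was served by both its standard and its immuno gene in both genotypes. Psmb6 had 70.5, 79.3 and 52.8 CPM in WT and 76.4, 67.9 and 53.2 in BIT. Psmb9, which encodes β1i, had 71.4, 78.2 and 65.5 CPM in WT and 76.8, 69.9 and 59.1 in BIT. For both genes replicate 3 had the lowest TMM-scaled CPM of each group, and the ranges of the genotypes overlapped. The log2 fold changes were -0.09 (SE 0.15; 95% interval -0.44 to 0.26) for Psmb6 and -0.12 (SE 0.10; -0.35 to 0.11) for Psmb9, with limma-voom adjusted p of 0.897 and 0.761. Psmb9 made up 45.1% ± 3.10 of the β1 sum in WT and 44.5% ± 1.28 in BIT (SD, n = 3) on canonical length, and 53.8% and 53.2% on coding length, so which of the genes was the larger depended on the length. The summed β1 level was 118 ± 17.6 CPM per kilobase in WT and 114 ± 17.9 in BIT (exact permutation p = 0.7), a log2 difference of -0.05 that was -0.17 without WT replicate 3.

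Psmb9 overlaps Tap1 on the opposite strand over 743 bases, and the sources used here do not give the strand setting of the counting. Tap1 had 8314, 7586 and 7064 counts in WT and 7796, 6640 and 6467 in BIT, with a log2 fold change of 0.0057 (adjusted p of 0.988 from limma-voom). Tap2, on the other side of Psmb8, had a log2 fold change of 0.12 (SE 0.10; 95% interval -0.10 to 0.34; adjusted p of 0.748), and neither neighbour of the edited gene was called.

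At the β2 position, which cuts after basic residues, the immuno gene was the larger. Psmb7 had 39.1, 46.1 and 38.8 CPM in WT and 40.5, 37.5 and 36.2 in BIT. Psmb10 had 74.0, 79.8 and 60.6 CPM in WT and 90.9, 90.5 and 66.4 in BIT. Replicates 1 and 2 of BIT lay above all WT values of Psmb10, and replicate 3 of BIT lay within them. Psmb7 had the lowest log2 fold change of the members outside the exchange, -0.16 (SE 0.10; 95% interval -0.40 to 0.07; limma-voom adjusted p 0.693), and Psmb10 the highest, 0.14 (SE 0.13; -0.15 to 0.44; adjusted p 0.776). The ratio of Psmb10 to Psmb7 on canonical length was 1.67, 1.53 and 1.38 in WT and 1.99, 2.13 and 1.62 in BIT. The groups overlapped through replicate 3 of BIT, and the exact permutation test of the log2 difference of 0.32 gave p = 0.2 (difference of 0.25 without WT replicate 3). Psmb10 made up 60.3% ± 2.31 of the β2 sum in WT and 65.5% ± 3.24 in BIT (SD, n = 3) on canonical length. Per kilobase of the union of all annotated exons, which is 6025 bases for Psmb7, the mean ratio was 6.01 in WT and 7.53 in BIT. The share of Psmb10 was then 85.7% and 88.1%. The sizes of the ratio and of the share thus depend on the length, while the log2 difference of the ratio between genotypes does not. The sum itself was 90.1 ± 10.5 CPM per kilobase in WT and 95.8 ± 12.2 in BIT on canonical length (exact permutation p = 0.5), a log2 difference of 0.09 that was 0.00067 without WT replicate 3.

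Between positions, the non-overlapping values were those that involve β5, the position of the edited and the inserted gene. Tests of values that hold Psmb8 or Psmb11 therefore only check the edit. The ratio of the β5 sum to the β1 sum was 1.20, 1.11 and 1.25 in the WT mice and 0.252, 0.293 and 0.230 in the BIT mice on canonical length. On coding length its means were 1.42 in WT and 0.441 in BIT. The groups did not overlap on either length, with an exact permutation p of 0.1. Each uses the same kind of length for all genes, and the size of the gap depends on the length given to Psmb11. On canonical length the ratio of Psmb8 to Psmb5 was 6.18 ± 0.766 in WT and 0.0490 ± 0.0136 in BIT, whereas the ratio of Psmb9 to Psmb6 was 0.826 ± 0.107 in WT and 0.803 ± 0.0422 in BIT (SD, n = 3; exact permutation p = 0.1 and 0.9). On coding length the ratio of Psmb9 to Psmb6 was 1.17 and 1.14. Its log2 difference of -0.04, the same on any length, was 0.07 without WT replicate 3. In all, 8 such sums and ratios were tested, and none could fall below 0.05 in this design. After Benjamini-Hochberg adjustment over the 8, the lowest p was 0.267.

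Among the PA28 genes, Psme1 and Psme2 encode the interferon-inducible cap that works with the immunoproteasome. Psme1 had 407, 480 and 322 CPM in WT and 483, 392 and 309 in BIT. Psme2 had 125, 148 and 91.6 CPM in WT and 142, 140 and 93.5 in BIT. Psme3, which encodes the nuclear cap subunit, had 145, 136 and 126 CPM in WT and 157, 149 and 137 in BIT, and it was the least variable of the 3. None of them separated the genotypes. The log2 fold changes were -0.07 (SE 0.16; 95% interval -0.43 to 0.29) for Psme1, -0.02 (SE 0.18; -0.44 to 0.39) for Psme2 and 0.06 (SE 0.07; -0.11 to 0.22) for Psme3, with limma-voom adjusted p of 0.922, 0.976 and 0.843.

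The ratio of Psme1 to Psme2 was 0.761 ± 0.0362 in WT and 0.724 ± 0.0754 in BIT per kilobase of canonical transcript (SD, n = 3), and 3.20 and 3.04 on coding length, because the canonical transcript of Psme1 is 4227 bases long with 750 coding and that of Psme2 is 965 bases long with 720 coding. The genotypes overlapped, with an exact permutation p of 0.6 for a log2 difference of -0.08, which was -0.04 without WT replicate 3. Psme2 shares a run of 341 bases with Psme2b, which had 663 to 984 counts per library. The estimated counts of both genes were not whole, so RSEM divided some of their reads. Psme1 overlaps Emc9 over 3062 bases and Psme2 overlaps Rnf31 over 731, on the opposite strand in both cases, and Emc9 had 200 to 250 counts and Rnf31 2003 to 2705.

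Over the 8 members outside the exchange, 6 log2 fold changes were below 0 and 2 above, with a median of -0.07 beside 0.01 over all genes tested. Their values ran from -0.16 to 0.14, and 67.7% of all genes tested lay within 0.25 of 0. Without WT replicate 3 the values ran from -0.23 for Psmb6 to 0.06 for Psmb10, with -0.18 for Psme1 and -0.19 for Psme2, and limma-voom adjusted p lay between 0.542 and 0.889. The widest bounds of the 8 intervals were 0.720 and 1.35 times the WT level. In the plot of changes, every one of these intervals crosses 0.

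**Figure D3:**
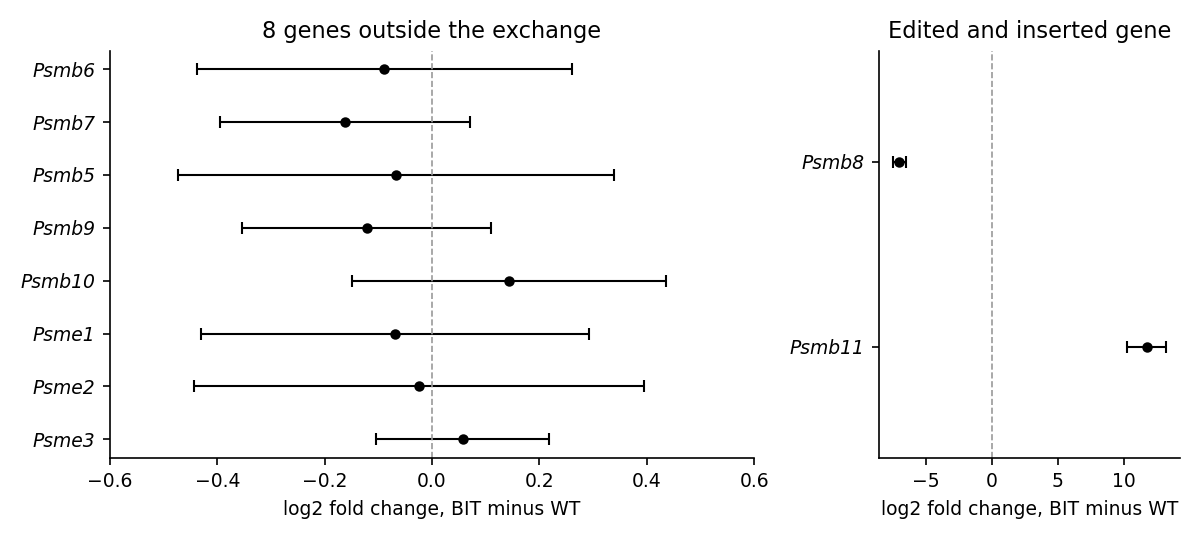
Log2 fold change of BIT over WT (points) with its 95% interval (bars) from limma-voom, for the 8 genes outside the exchange (left) and, on a wider axis, Psmb8 and Psmb11 (right). The intervals on the left lie between -0.47 and 0.44 and all cross 0, while Psmb8 is at -7.00 and Psmb11, whose fitted value depends on how counts of 0 are handled, is at 11.74.

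The order of the genes within a genotype depended on the length used for some members and not for others. Per kilobase of canonical transcript, the WT levels in CPM were 126 for Psme2, 119 for Psmb8, 95.4 for Psme1, 65.2 for Psmb6, 54.5 for Psmb10, 52.98 for Psmb9, 35.6 for Psmb7, 31.1 for Psme3 and 19.7 for Psmb5. Neighbours from Psme2 down to Psmb9 overlapped in their ranges over the 3 mice, so their order is not resolved by the spread. Psmb9 and Psmb7, Psmb7 and Psme3, and Psme3 and Psmb5 did not overlap. Within each mouse some neighbours kept their order although their ranges overlapped: Psmb8 was above Psme1, Psme1 above Psmb6 and Psmb6 above Psmb10 in 3 of 3 WT mice, while Psme2 was above Psmb8 in 2 of 3.

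Per kilobase of coding sequence, Psme1 led the WT order at 537 ± 105 CPM, followed by Psmb8 at 245, Psme3 at 178, Psme2 at 169, Psmb9 at 109, Psmb6 at 94.2, Psmb10 at 86.9, Psmb7 at 49.6 and Psmb5 at 42.0. Psme1 and Psmb8 did not overlap, nor did Psmb8 and Psme3, so Psmb8 was the highest of the catalytic genes in every WT mouse on either length. Psme3 moved from the eighth to the third place between the lengths. Psmb6 overlapped with Psmb9 above it and Psmb10 below it, and Psmb7 overlapped with Psmb5.

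In BIT, Psmb8 went to the last place. The canonical order was Psme2 at 130 CPM per kilobase, Psme1 at 93.4, Psmb6 at 63.6, Psmb10 at 63.0, Psmb9 at 50.7, Psme3 at 33.7, Psmb7 at 32.8, Psmb5 at 19.5, Psmb11 at 9.30 and Psmb8 at 0.910. Psmb11 did not overlap with Psmb5 above it or Psmb8 below it. On coding length Psmb11 at 43.5 fell between Psmb7 at 45.7 and Psmb5 at 41.6 and overlapped with both, so it was then within the range of the standard catalytic genes at the foot of the order. Both orders give all genes the same kind of length, so the place of Psmb11 depends on the unknown length of the inserted sequence.

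The mouse labelled replicate 3 had the lowest TMM-scaled CPM for most members in both genotypes. It was lowest for 9 of the 9 members expressed in WT and for 9 of 10 in BIT, and for 8 in both. Over all genes tested replicate 3 was the lowest in 38.7% of WT rows and 40.7% of BIT rows, and in both for 25.8%. Relative to the mean of replicates 1 and 2, replicate 3 held 66.9% of Psme2 in WT and 66.3% in BIT, 70.6% and 62.2% of Psmb5, and 70.6% and 73.8% of Psmb6. The gap was smaller for Psmb7, at 91.1% and 92.8%, and for Psme3, at 89.8% and 90.0%. Psmb11 in BIT replicate 3 was at 68.7% of the other BIT mice. The replicate 3 libraries were also the shallowest of their groups. They had the highest TMM factors, 1.088 in WT and 1.080 in BIT, which lower their scaled CPM. Without these factors replicate 3 was not the lowest for Psmb7 and Psme3 in either genotype, nor for Psmb9 in WT. The parts of depth and of this scaling in the pattern were not tested. Of the 8 members outside the exchange, the 4 with the lowest replicate 3 in WT (Psme2, Psmb5, Psmb6 and Psme1) also had the widest intervals of the fold change. A low replicate 3 is itself part of the spread that sets these intervals, so the one follows in part from the other. With replicate 3 of both genotypes left out, Psmb8 (log2 fold change -7.05) and Psmb11 (11.95) were still called, and the other 8 had limma-voom adjusted p between 0.453 and 0.963, the lowest for Psmb10 at 0.18 (SE 0.10).

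**Figure D4:**
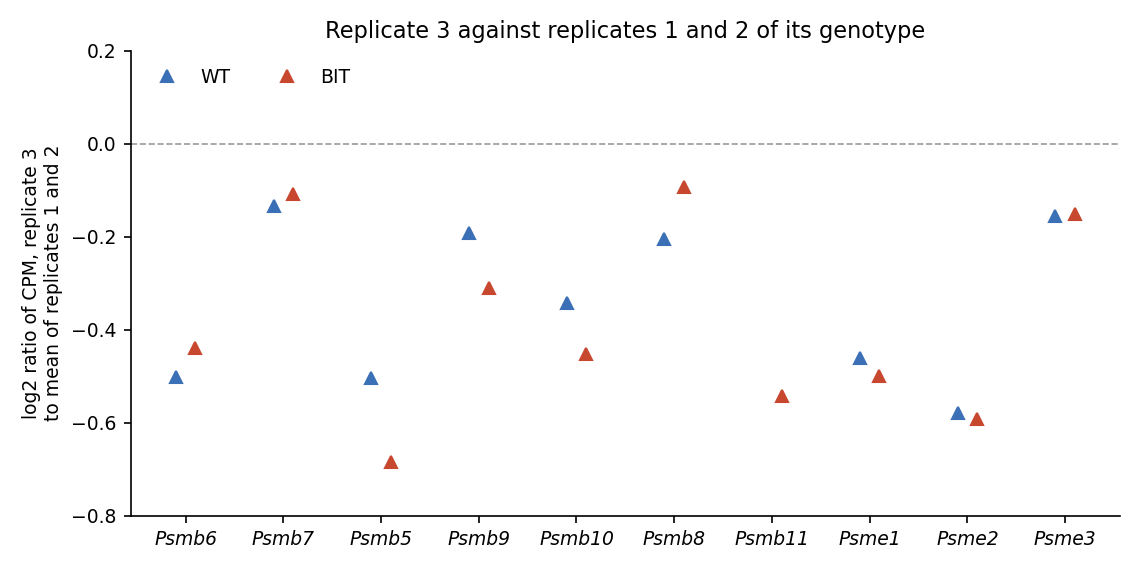
Log2 ratio of TMM-scaled CPM in replicate 3 to the mean of replicates 1 and 2 of the same genotype, for each gene in WT (blue) and BIT (red), with 0 marking no difference. Psmb11 has no WT point because it had 0 counts. All points lie below 0, from -0.69 for Psmb5 in BIT to -0.09 for Psmb8 in BIT.

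The rest of the proteasome and its partners were read from lists chosen with earlier results of these data known. None of their genes was called in limma-voom, beside 0.137% of all genes. Of the 20S α subunits, which form the outer rings, 7 of 8 were tested (Psma8 was not), and all 7 log2 fold changes were below 0, with a median of -0.14 and values from -0.31 for Psma6 (adjusted p 0.684) to -0.02 for Psma5. The 4 non-catalytic β subunits were also below 0, with a median of -0.15, from -0.22 for Psmb2 (adjusted p 0.670) to -0.09 for Psmb4. These medians are relative to 0.01 for all genes. Of 19 subunits of the 19S particle, which recognises and unfolds ubiquitinated proteins, 7 were above 0 and 12 below, with a median of -0.05, from Psmc6 at -0.15 to Adrm1, a ubiquitin receptor, at 0.14.

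Of 10 assembly factors and other caps, 6 were above 0 and 4 below, with a median of 0.04. They ran from -0.17 for Psmg4 to 0.16 for Psmg2, which encode assembly chaperones. Among 8 transcription regulators and their processing factors, 5 were above 0 and 3 below, with a median of 0.09, from -0.09 for Nfe2l2 to 0.22 for Ddi2, the protease that activates Nfe2l1. Of 11 genes for MHC class I peptide loading, 10 were above 0 and 1 below, with a median of 0.12. Tapbp, which encodes the peptide-loading chaperone tapasin, was the highest at 0.38 (SE 0.09; adjusted p 0.341 from limma-voom). It had 20519, 17508 and 15078 counts in WT and 22333, 22476 and 17180 in BIT. Of all these lists, only Tapbp and Erap1 (log2 fold change 0.14) had normalised values that did not overlap between genotypes. Over all genes tested, 13.3% did not overlap. Calr was the lowest at -0.0046. Tapbp was the only gene of these lists with an unadjusted p below 0.05, beside 1380 of the 16105 genes tested.

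Promoters were searched because β1i, β2i, β5i, PA28α and PA28β are known interferon targets and the standard subunits are known to respond to Nfe2l1. RefSeq promoters, 250 bases before to 50 after the start, were found for 9 of 10 members (not Psmb7) and searched on both strands for an interferon regulatory factor core GAAANNGAA, a STAT core TTCNNNGAA, an antioxidant response core TGACNNNGC and the CCAAT box. Of all 32851 promoters in the table, these motifs occur in 8.56%, 8.30%, 12.4% and 37.4%. The matches of the first 3 motifs in members are shown with their surroundings, in capitals, on the strand of the gene and with GRCm39 positions.
Psmb5, antioxidant response core, 47 bases before the start (chr14:54855481-54855509, minus strand): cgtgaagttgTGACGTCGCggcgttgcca
Psmb6, antioxidant response core, 9 bases before the start (chr11:70416164-70416192): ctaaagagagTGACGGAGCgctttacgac
Psmb8, STAT core, 97 bases before the start (chr17:34417062-34417090): tcctccgctgTTCCCAGAAgatgcccccc
Psme1, interferon regulatory factor core on the opposite strand, 11 bases after the start (chr14:55815951-55815979): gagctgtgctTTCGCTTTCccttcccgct

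The antioxidant response core thus occurred in 2 standard genes, and the STAT core in the edited gene Psmb8, which in BIT mice is the sequence upstream of the inserted Psmb11. The CCAAT box was found in Psmb9, Psmb11 and Psme3. No match in the other promoters says only that these letters are not in the window searched.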

How the data were processed

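RNA was sequenced from sorted CD8 T cells of 3 WT and 3 BIT mice, grouped by sample title. The authors trimmed reads (cutadapt 1.18), aligned them to GRCm39 (STAR 2.7.0f) and deposited RSEM 1.3.1 estimated counts per gene on Gencode M38, after depletion of ribosomal RNA. The strand setting is not given in the sources used here. These counts were rounded, filtered with filterByExpr (edgeR 4.0.16) and tested by limma-voom (limma 3.58.1, R 4.3.3) with quantile normalization, as the study's methods name, and genes were called at an adjusted p below 0.05. Scripts were tested on simulated data. Levels are TMM-scaled CPM per kilobase of Gencode M39 models; other lengths, scalings, filters, DESeq2 1.42.0 and edgeR were alternatives. Sums and ratios were compared by exact permutation. Quantile normalization and CPM hide any shift common to most genes. In bulk RNA, fewer cells expressing a gene and less RNA per cell cannot be told apart.

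The members and lists were chosen with earlier results of these data known. All 10 members are named. Of each list, genes with an adjusted p below 0.05 are named, otherwise the highest and lowest. Tap1 and Tap2 beside Psmb8 are also named, and Erap1, whose values did not overlap. Sequences are from GRCm39, and promoters from RefSeq (GRCm38.p6), placed on GRCm39 by exact match. Nothing says that mice were littermates, and p-values measure the spread between these mice.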

Additional observations from a re-analysis of the deposited data

How the results depend on the processing

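The number of genes called was 22. It was 14 with edgeR, 125 with DESeq2, 42 with replicate 3 as a batch term, 71 with replicate 3 of both genotypes left out, 4 when the threshold was 0.01 and a change over 2-fold, and 1 to 37 with each mouse left out in turn (1, 4 and 37 without WT replicates 1, 2 and 3, and 9, 2 and 11 without BIT replicates 1, 2 and 3). Psmb8 kept its direction and call under every alternative, with log2 fold changes from -7.11 to -6.90 when each mouse was left out. Psmb11 kept its direction, from 11.64 to 11.92 when each mouse was left out, but its adjusted p was 0.0615 without WT replicate 1. Its fitted value, set against counts of 0, was 10.93 with a mean of at least 1 CPM, 13.31 with DESeq2 and 13.77 with edgeR. For both calls and for the reversals that follow, the cause was not tested. None of the other 8 members was called under any alternative, but small log2 differences changed sign. With each mouse left out, the range was -0.20 to 0.12 for Psmb5, -0.23 to 0.046 for Psmb6, -0.21 to 0.069 for Psme1, -0.19 to 0.14 for Psme2, -0.17 to 0.077 for the β1 sum, -0.10 to 0.068 for Psmb9 to Psmb6 and -0.13 to 0.012 for Psme1 to Psme2. Psme2 was at 0.034 with TMM, 0.031 with edgeR, 0.035 with DESeq2 and 0.017 with sample quality weights. Psmb9 to Psmb6 was at 0.026 with replicate 3 of both genotypes left out. Psmb11 in BIT as a percent of Psmb8 in WT was 13.8 on union exon length and 17.8 on coding length, against 7.79 on canonical length, and levels per kilobase moved with the length, since the lengths themselves differ. Each of these percents used the same kind of length for both genes.

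Replicate numbers were also entered as a block. Same-numbered mice correlated at 0.139, 0.0255 and 0.332 in their deviations from the group means, and not every mouse correlated best with its own number, so the numbers were not taken as pairs. The replicate block gave 21 calls and changed no member's call. With 3 mice a group, sums and ratios could not reach p below 0.05, and leaving out a mouse there gives a value with no test.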
